A study of Mus musculus with 8 samples.

Results

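The receptors for fibroblast growth factors (FGFs) and the genes that report and restrain their ERK signal were examined in dental pulp (DP) of control and *Tgfbr2cko* molars. Of 10 genes chosen by name (*Fgfr1*, *Fgfr2*, *Fgfr3*, *Fgf2*, *Spry1*, *Spry2*, *Spry4*, *Dusp6*, *Etv4* and *Etv5*), 8 had a row among the 12148 genes of the expression table. *Fgf2* and *Etv4* were not analysed here. *Spry1* and *Etv5* were higher in the mutants, 2.48-fold and 2.02-fold with all 8 libraries. With single libraries left out both stayed above 1.5-fold, but their adjusted p by limma rose to as much as 0.0857 and 0.147. *Fgfr2* was higher by a smaller amount, past an unadjusted threshold alone and under 1.5-fold once library 56 was left out. The most abundant receptors, *Fgfr1* and *Fgfr3*, did not pass the test.

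FGFs bind receptor tyrosine kinases at the cell surface, together with heparan sulfate, and the activated receptor passes its signal through docking proteins to RAS, RAF, MEK and ERK. ERK then turns on transcription factors of the ETS family, such as ETV4 and ETV5, and a set of inhibitors that feed back on the pathway: the Sprouty proteins act upstream of ERK and DUSP6 removes phosphate from ERK itself. In teeth, FGF signals pass between epithelium and mesenchyme during crown formation, and ETV and Sprouty transcripts are commonly used as a readout of FGF-ERK activity.

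The RNA-Seq data came from the first molars (M1s) of C57BL/6J mice at postnatal day 7 (P7), with 4 Osterix-Cre libraries as controls and 4 *Tgfbr2cko* libraries. Both genotypes carried the Osterix-Cre transgene, so that Cre itself was shared, and in the *Tgfbr2cko* mice this Cre deleted *Tgfbr2*, a receptor for TGFβ, from the mesenchyme that forms odontoblasts and bone. Cells outside that lineage kept the gene, and left and right M1s were combined before RNA was extracted. The comparison asked which transcripts differ in pulp when the mesenchyme lacks this receptor. In bulk pulp RNA, fewer cells of a type and less RNA per cell cannot be told apart.

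Libraries are named here by the sample number in their labels, 49 to 52 for the controls and 53 to 56 for the mutants. The labels carry a second number whose meaning is not stated and which repeats: 4, 4, 2 and 5 for the controls and 3, 2, 2 and 3 for the mutants. If a repeated number marked 1 source, there would be 3 control and 2 mutant units, and an exact permutation test could not give a p under 0.1. With such libraries averaged, limma gave rises of 1.29 for *Spry1* (adjusted p = 0.044), 0.97 for *Etv5* (adjusted p = 0.049) and 0.72 for *Fgfr2* (adjusted p = 0.112). The libraries held between 8682872 and 13539670 reads on the genes of the table. *Tgfbr2* itself ran from 7.16 to 7.64 in controls and from 7.00 to 7.61 in the mutants on the log2 CPM scale (CPM, reads scaled to a common library total), a difference of -0.29 ± 0.17 (SE, adjusted p = 0.79 by limma). The highest mutant value, that of library 56, lay among the controls, and counts over the whole gene include exons that a deletion can leave, so that *Tgfbr2* is a weak check of the labels. Reads of the enamel proteins *Amelx* and *Ambn*, which are made by the enamel organ around the pulp, took 18.5% of library 56, 2.74% of library 55 and 2.14% of library 49, and between 0.326% and 0.548% of the other 5 libraries. Of the 7 genes of the enamel matrix list, *Klk4*, an enamel protease, fell by 2.71 on the log2 scale between the genotypes (adjusted p = 0.000136 by limma). The other 6 did not pass the test, with *Amelx*, *Ambn* and *Enam* at 1.39, 1.45 and 1.63 and *Mmp20*, *Amtn* and *Odam* at -0.38, -0.89 and -0.76. Markers of dental epithelium, of which 7 of 8 were analysed and none was at 0 in any library, summed to between 341 and 533 CPM in the controls. In the mutants they summed to 374, 568, 1400 and 4460 CPM in libraries 53, 54, 55 and 56. For each of 11 marker lists, odontoblasts and pulp mesenchyme included, the summed levels of the genotypes overlapped. For endothelium they met only at 305 to 306 CPM. For odontoblasts mutant libraries 53, 54 and 56 lay below the lowest control (46000 CPM), and so they did for alveolar bone (lowest control 2040 CPM), with the overlap through library 55. Single markers did move with genotype: of 59 analysed, 4 were altered upward and 9 downward, where 2.12% and 3.65% of all genes were. *Krt17* of dental epithelium rose (1.67), the bone list was split between *Ibsp* (1.24), *Bglap* (-0.72) and *Sp7* (0.05, not altered), and the fallen markers included *Nes* of odontoblasts (-0.81), *Pdgfrb* of pulp mesenchyme (-0.69, with *Pdgfra* and *Msx2* of that list at 0.34 and 0.29 and not altered), *Rgs5* of pericytes (-0.83, adjusted p = 0.0212 by limma), *Tek* of endothelium (-0.64) and *Mrc1* of macrophages (-0.99). Within these lists other markers went the same way without passing the test, such as *Dspp* (-0.71) and *Col1a1* (-0.86) of odontoblasts and *Krt5* (1.21) and *Krt14* (1.20) of dental epithelium. Others differed by little or went the other way, also without passing it. These included *Phex* (0.14) and *Smpd3* (0.06) of odontoblasts, *Cspg4* (0.26) of pericytes and, alone among the dental epithelium markers, *Epcam* (-0.43). The part of such differences in the results on the FGF genes was not tested. Library 56 thus stood apart, and it held the lowest mutant value of 7 of the 8 genes described here and the highest value of the other, *Fgfr2*. Over all genes, 60% had their lowest mutant value in library 56 and 9.99% their highest.

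The sequences directly upstream of the start sites of the 3 genes that passed the test are shown because these genes moved in the same direction and their upstream regions differ in composition. The 250 bases before the start are printed 5′ to 3′ on the strand of the gene, from RefSeq on GRCm38.p6, with every CpG dinucleotide in capitals. *Spry1* lies at chr3:37639697-37639946 on the plus strand, *Etv5* (the first of 2 listed start sites) at chr16:22439571-22439820 on the minus strand, and *Fgfr2* at chr7:130266809-130267058 on the minus strand.
Spry1: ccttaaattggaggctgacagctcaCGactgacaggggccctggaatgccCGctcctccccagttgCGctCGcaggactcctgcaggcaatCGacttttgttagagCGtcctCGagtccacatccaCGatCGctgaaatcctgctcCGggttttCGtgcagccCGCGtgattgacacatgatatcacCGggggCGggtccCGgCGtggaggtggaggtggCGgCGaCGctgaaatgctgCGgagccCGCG
Etv5: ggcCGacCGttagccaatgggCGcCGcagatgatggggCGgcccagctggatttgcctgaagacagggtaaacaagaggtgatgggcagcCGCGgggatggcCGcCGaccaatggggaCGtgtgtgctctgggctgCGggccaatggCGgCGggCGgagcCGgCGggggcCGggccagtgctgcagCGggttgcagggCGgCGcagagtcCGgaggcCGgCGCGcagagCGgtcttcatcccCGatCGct
Fgfr2: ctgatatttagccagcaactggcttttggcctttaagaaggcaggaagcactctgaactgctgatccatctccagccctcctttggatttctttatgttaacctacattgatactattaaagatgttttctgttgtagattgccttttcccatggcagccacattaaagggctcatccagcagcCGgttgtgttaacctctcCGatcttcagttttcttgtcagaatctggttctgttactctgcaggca

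*Spry1* had 23 CpGs in this window and *Etv5* had 27, more than 86.7% and 91.4% of the 32851 promoters in the reference table, whose median was 6. *Fgfr2* had 2 CpGs, more than 18.8% of promoters. The other genes with an entry, *Fgfr3*, *Spry2* and *Dusp6*, had between 16 and 24 CpGs. The *Fgfr2* window was 1 of 2 whose last 20 bases were found in no annotated transcript of the gene, so that its start site was not checked by the annotation used here. Windows of 300 bases around the 8 start sites of these 6 genes were then searched on both strands for 4 short motifs, none of which contains another. The ETS core CCGGAAG was in 8.86% of all promoters, the AP-1 site TGACTCA in 5.2%, the cAMP element TGACGTCA in 1.79% and the SMAD palindrome GTCTAGAC in 0.213%. None of the 8 windows held any of the 4, which says only that these letters were not in these windows.

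The levels of the 8 genes were first compared in the controls, as CPM per kilobase of annotated exon. *Fgfr1* was the most abundant, at 225 ± 34.7 CPM per kb (SD, n = 4 here and below), followed by *Fgfr3* at 58.5 ± 15.7. FGFR1 is widespread in mesenchyme, and FGFR3 is best known from cartilage, where it limits growth. *Dusp6*, the phosphatase that inactivates ERK, stood at 19.6 ± 1.17 CPM per kb, the ETS factor *Etv5* at 11.9 ± 1.67 and *Fgfr2*, a receptor whose splice forms divide between epithelium and mesenchyme, at 5.16 ± 0.577. The Sprouty genes were lowest, with *Spry4* at 3.06 ± 0.621, *Spry2* at 2.82 ± 1.5 and *Spry1* at 1.93 ± 0.205. The ranges of neighbours in this order did not overlap from *Fgfr1* down to *Spry4*, whereas *Spry4* and *Spry2* overlapped, and so did *Spry2* and *Spry1*. Per kilobase of the longest transcript instead, *Fgfr1* was 440, *Fgfr3* 98.6 and *Fgfr2* 12 ± 1.35, and *Fgfr2* then overlapped *Etv5* (12.3 ± 1.72). In the mutants the mean of *Spry1* was 4.94 ± 1.31 CPM per kb, above the means of *Spry4* (3.03) and *Spry2* (3.44), and *Etv5*, at 24.9, came close to *Dusp6*, at 26.1.

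**Figure D1:**
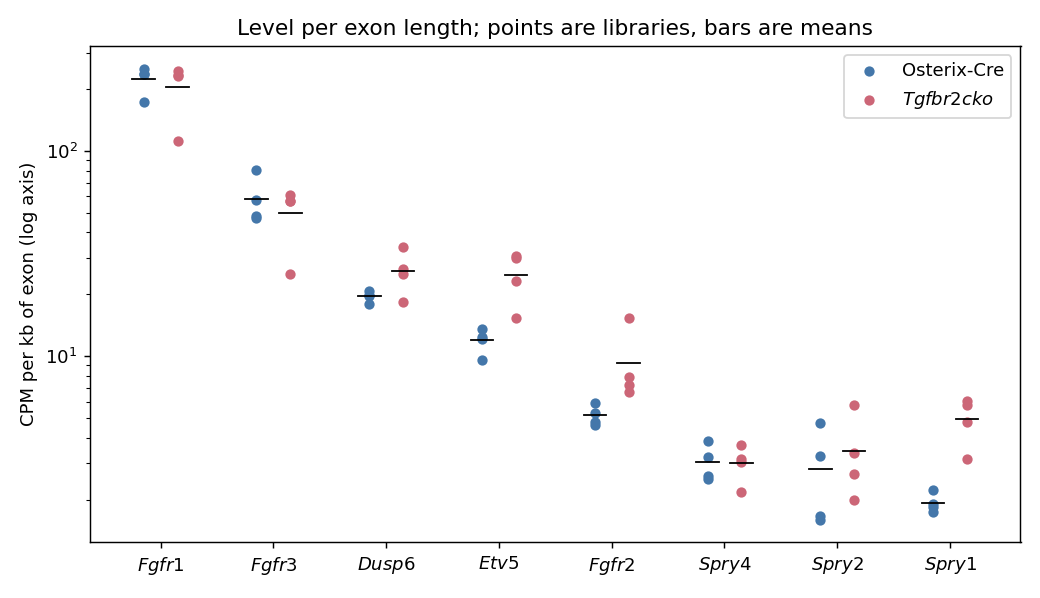
Level of each gene in CPM per kb of exon (log axis), with 1 point per library and a bar at the mean of each genotype. *Fgfr1* lay at 225 CPM per kb in controls and *Spry1* at 1.93, and *Etv5*, *Fgfr2* and *Spry1* are the genes whose mutant points all lie above the control points.

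Genes with a change of at least 1.5-fold and an unadjusted p under 0.05 are called altered here. By this rule 3 of the 8 genes were higher in the mutants (*Spry1*, *Etv5* and *Fgfr2*) and none was lower, where 2.12% of all genes were altered upward and 3.65% downward. *Spry1* and *Etv5* also had an adjusted p under 0.05, which 0.247% of all genes reached with a rise and 0.7% with a fall. The mutants were all above the controls, with no overlap, for 3 of the 8 genes, against 2.13% of all genes, and all below them for none, against 3.14%. The median log2 difference was 0.35 over the 8 genes and -0.01 over all genes. The 8 genes were chosen with earlier results of these data known, so these counts and medians are descriptions. The split between rises and falls over all genes depended on the library totals: 258 of 701 altered genes were higher (36.8%), and 343 of 696 (49.3%) when the totals were counted without *Amelx*, *Ambn* and *Enam*. *Spry1*, *Etv5* and *Fgfr2* were altered with either total, but *Fgfr2* was no longer altered, leaving 2 of 8 genes, in 5 other fits: with library weights, without library 56, with an enamel matrix or a dental epithelium term, and without libraries 49, 55 and 56.

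**Figure D2:**
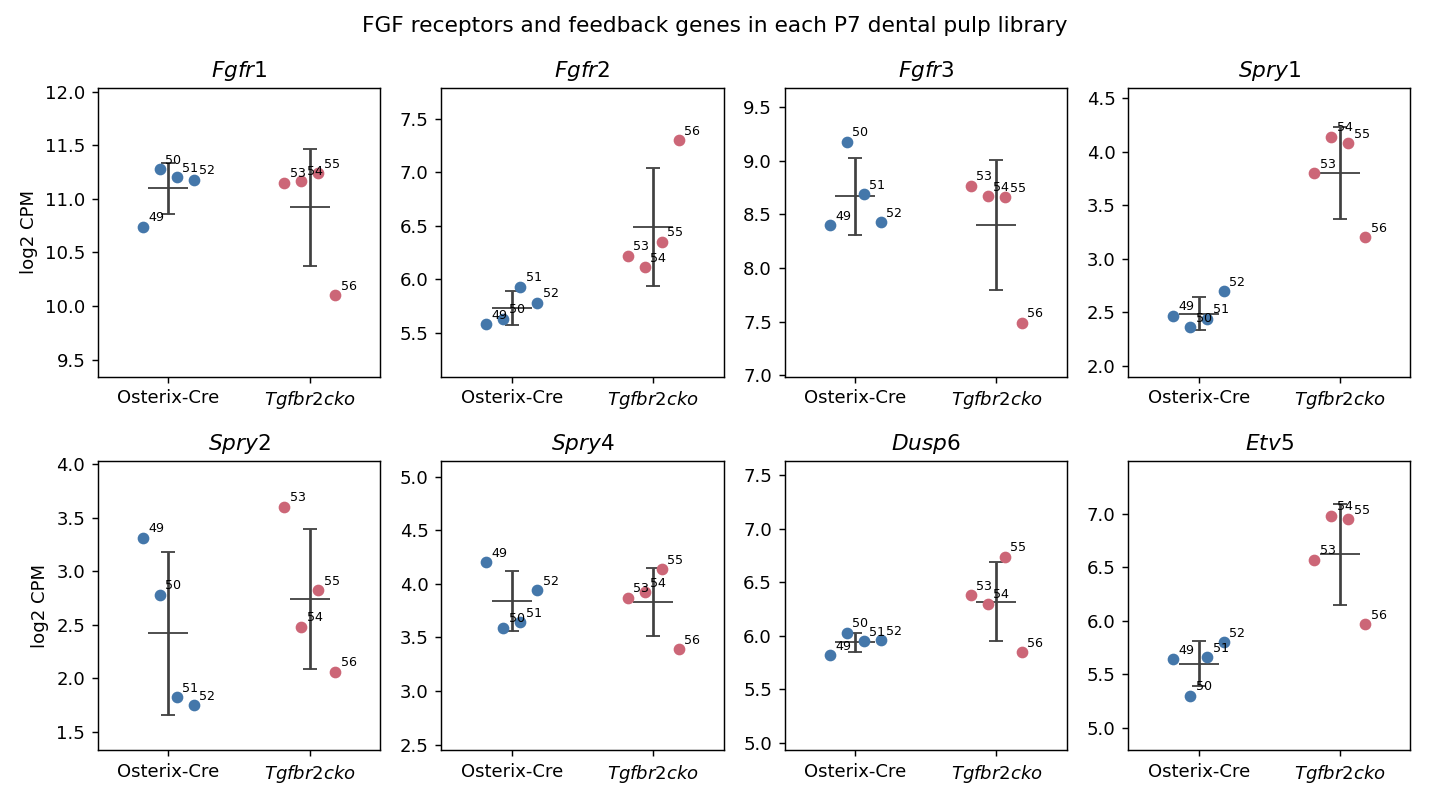
Log2 CPM of the 8 genes in each library, with library numbers beside the points and bars at the mean ± SD of each genotype (n = 4); every panel spans the same number of log2 units. The genotypes separate for *Spry1*, *Etv5* and *Fgfr2*, and library 56 is the lowest mutant point in every panel but that of *Fgfr2*.

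*Fgfr1* (chr8:25513654-25575718), the receptor with the highest level, was 10.74, 11.28, 11.20 and 11.18 log2 CPM in control libraries 49 to 52. It was 11.15, 11.17, 11.24 and 10.10 in mutant libraries 53 to 56. Apart from the low value in library 56, the mutants lay within the range of the controls. The difference was -0.18 ± 0.28 (SE; adjusted p = 0.995 by limma), and it turned to 0.09 without library 56 and to 0.13 with the dental epithelium markers as a term in the model. The median of all genes was 0.07 and 0.10 in these fits.

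*Fgfr3* (chr5:33721674-33737068) was 8.40, 9.18, 8.69 and 8.43 log2 CPM in controls and 8.77, 8.67, 8.66 and 7.49 in the mutants, in the order of their numbers. The pattern was that of *Fgfr1*, with 3 mutant values inside the control range and library 56 below it. The difference of -0.27 ± 0.27 (adjusted p = 0.958 by limma) turned to 0.03 without library 56, where the median of all genes was 0.07. An antisense transcript, *G630022F23Rik*, covers 13.9% of the exon bases of *Fgfr3*, and the setting for strand in the counting is not given in the sources used here, so that reads from the overlap cannot be assigned to either strand.

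*Fgfr2* (chr7:130162451-133123350, a span that includes long transcripts reaching into *Ctbp2*) was 5.58, 5.63, 5.93 and 5.78 log2 CPM in the controls. In the mutants it was 6.22, 6.11, 6.35 and 7.30. Every mutant library was above every control library, by a narrow margin in libraries 53 to 55 and by more than 1 log2 unit in library 56. The mean rose by 0.76 ± 0.23, or 1.7-fold, with p = 0.0055 unadjusted and 0.194 adjusted by limma, and the exact permutation test of 4 against 4 gave p = 0.0286, the smallest it allows. *Ctbp2* shares 3.04% of the exon bases of *Fgfr2* on the same strand and differed by -0.02 ± 0.15.

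The library with the highest *Fgfr2* was also the one with the most reads of dental epithelium markers. Without library 56 the rise was 0.49 (unadjusted p = 0.0048 by limma across all genes), under 1.5-fold. With dental epithelium markers as a term in the model it was 0.42, and without the 3 libraries richest in enamel matrix reads (49, 55 and 56) it was 0.38 (unadjusted p = 0.0466 by limma), the latter chosen after the values were seen. In libraries 53 and 54, whose epithelial markers summed to 374 and 568 CPM against 341 to 533 CPM in the controls, *Fgfr2* was 6.22 and 6.11, and the highest control value was 5.93. The part of epithelial RNA in the difference was not tested.

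**Figure D3:**
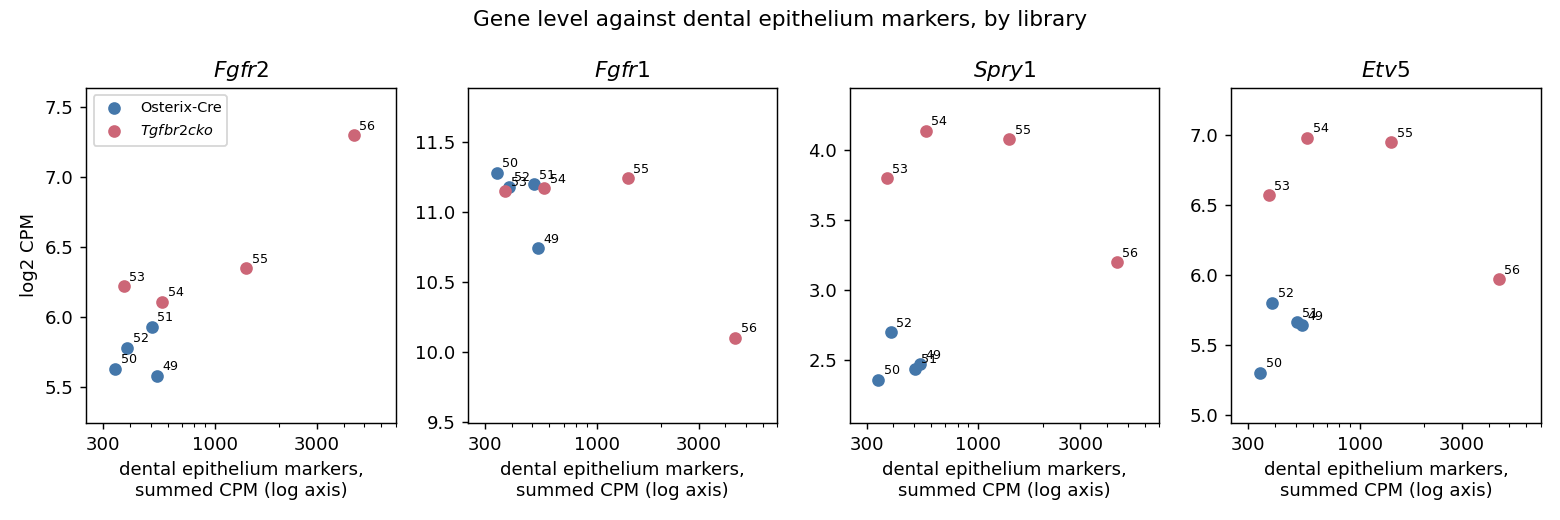
Log2 CPM of 4 genes (vertical axes, equal span) against the summed CPM of 7 dental epithelium markers (log axis), with 1 point per library. *Fgfr2* is highest and *Fgfr1* lowest in library 56, at 4460 CPM of these markers, and *Fgfr2*, *Spry1* and *Etv5* each separate the genotypes among the libraries with 341 to 568 CPM.

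Within a library, *Fgfr2* shifted against the other receptors. The log2 value of *Fgfr2* minus that of *Fgfr1* was between -5.65 and -5.16 in controls and between -5.07 and -2.79 in the mutants, so that the groups did not overlap. The mean of this difference was 0.95 higher in the mutants, and 0.40 higher without library 56, where the groups still did not overlap. *Fgfr1* minus *Fgfr3*, by contrast, was 2.43 ± 0.27 in controls and 2.52 ± 0.10 in the mutants (SD, n = 4). These differences cancel the library total, and since the pairs were chosen after the values were seen they are given with no test.

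Among the inhibitors, *Spry1* (chr3:37639947-37644598) changed most. Sprouty proteins are induced by receptor tyrosine kinase signals and dampen the path from receptor to ERK. *Spry1* was 2.47, 2.36, 2.44 and 2.70 log2 CPM in controls and 3.80, 4.14, 4.08 and 3.20 in the mutants. The controls lay close together and all mutants lay above them, with library 56 nearest to the controls. The mean rose by 1.31 ± 0.24, or 2.48-fold, with an adjusted p of 0.0205 by limma and p = 0.0286 in the exact permutation test.

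*Spry1* rested on few reads, from 49 to 216 per library, and it was counted as altered with every library left out in turn. The adjusted p then ran from 0.00331 to 0.0857 by limma, and it was above 0.05 without library 49, 50, 51, 54 or 55. With the mean of *Amelx*, *Ambn* and *Enam* as a term in the model the rise was 1.45, and it was 1.51 without library 56. The antisense gene *Gm42922* covers 24.4% of the exon bases of *Spry1*, and reads from this stretch cannot be assigned to a strand.

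The other Sprouty genes did not pass the test. *Spry2* (chr14:105891947-105896819) was 3.31, 2.78, 1.82 and 1.75 log2 CPM in controls and 3.60, 2.48, 2.82 and 2.06 in the mutants. The controls alone spread over more than 1 log2 unit and contained most of the mutant values. The difference was 0.32 ± 0.40 (adjusted p = 0.98 by limma). It ran from 0.04 to 0.62 with single libraries left out and from 0.28 to 0.92 in the other fits. *Spry4* was 4.20, 3.59, 3.64 and 3.94 in controls and 3.87, 3.92, 4.14 and 3.39 in the mutants, with a difference of -0.02 ± 0.22 (adjusted p = 0.998), whose sign depended on the setting. Within a library, *Spry1* minus *Spry4* was between -1.73 and -1.20 in controls and between -0.18 and 0.22 in the mutants, so that *Spry1* moved from well below *Spry4* to about the same log2 CPM. *Spry1* minus *Spry2* overlapped between the genotypes, with means of 0.08 ± 0.85 and 1.06 ± 0.62 (SD, n = 4).

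*Dusp6* (chr10:99263231-99267489), the ERK phosphatase, was 5.82, 6.03, 5.95 and 5.96 log2 CPM in the controls. It was 6.38, 6.30, 6.74 and 5.85 in the mutants. The controls were the tightest of the 8 genes, with an SD of 0.09, and 3 mutants lay above them while library 56 lay among them. The difference of 0.38 ± 0.18 had p = 0.0502 unadjusted and 0.596 adjusted by limma, and the exact permutation test gave p = 0.114. Without library 56 it was 0.54 (unadjusted p = 0.00298 and adjusted p = 0.129 by limma), still under 1.5-fold. *Dusp6* was therefore not counted as altered, with or without that library.

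*Etv5* (chr16:22381309-22439719), an ETS factor induced by FGF-ERK signals, was 5.64, 5.30, 5.66 and 5.80 log2 CPM in the controls. In the mutants it was 6.57, 6.98, 6.95 and 5.97. All mutants were above all controls, and library 56 was the closest to the highest control. The mean rose by 1.02 ± 0.21, or 2.02-fold, with an adjusted p of 0.0415 by limma and p = 0.0286 in the exact permutation test. Between 381 and 1551 reads lay behind each value.

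*Etv5* was also altered with every library left out in turn, with a rise of 0.90 to 1.23. The adjusted p by limma ran from 0.00183 to 0.147 in these fits and was under 0.05 only without library 53 or library 56. With the dental epithelium markers in the model the rise was 1.19. Within a library, *Spry1* minus *Etv5* was -3.11 ± 0.12 log2 units in controls and -2.82 ± 0.05 in the mutants (SD, n = 4), a shift of 0.29 with no overlap. *Etv5* minus *Dusp6* was between -0.72 and -0.15 in controls and between 0.12 and 0.68 in the mutants.

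**Figure D4:**
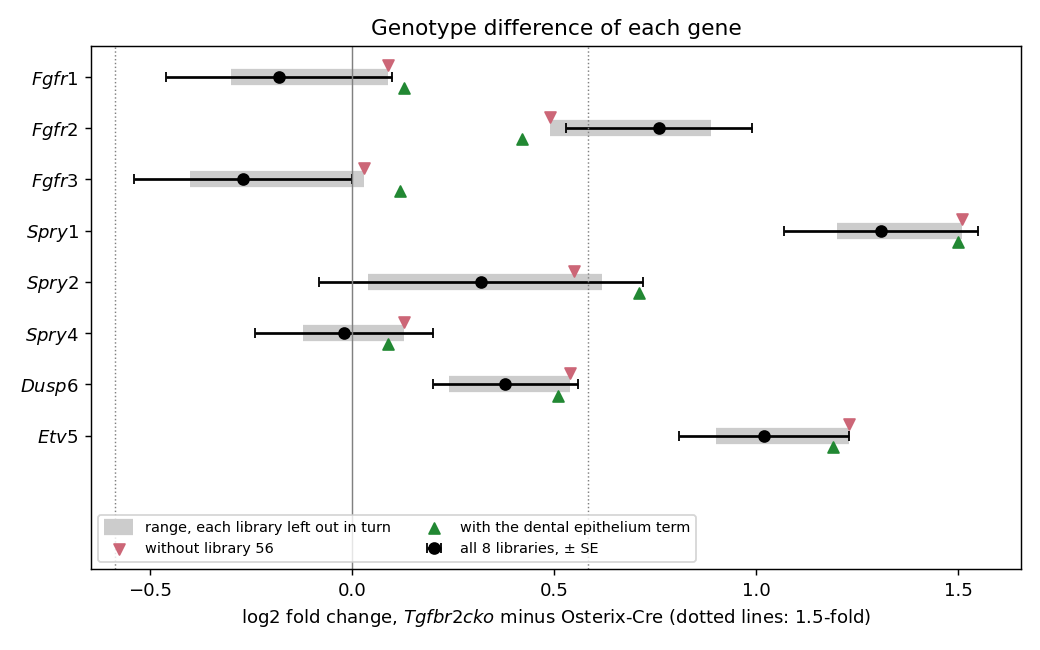
Log2 fold change of each gene, mutants minus controls, with its SE from the fit of all 8 libraries (black), the range when each library is left out in turn (grey), the value without library 56 (red) and the value with dental epithelium markers in the model (green). *Spry1* and *Etv5* stay beyond the 1.5-fold line in all of these, *Fgfr2* falls to 0.49 and 0.42, and *Fgfr1* and *Fgfr3* change sign. The median of all genes was 0.07 without library 56 and 0.10 with the markers in the model.

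Genes whose level followed each altered gene most closely within the genotypes were found by Pearson r over the 8 libraries after each genotype's mean was subtracted. For *Spry1* these were *Pcolce* (r = 0.987), *Fam45a* (0.986) and *Fam43b* (0.982). For *Etv5* they were *Adamts14* (0.986), *F2rl2* (0.985) and *Mypn* (0.983). For *Fgfr2* they were *Fam3c* (0.972), *Htra1* (0.972) and *Tecpr2* (0.966). All points share library 56, which lies far from the others. Without it (n = 7) the r of these genes was 0.937 to 0.951 for *Spry1*, 0.944 to 0.961 for *Etv5* and 0.715 to 0.866 for *Fgfr2*. *Mypn* went the other way between the genotypes, at -1.63 (adjusted p = 0.0159 by limma), whereas *Fam43b* rose by 0.98 (unadjusted p = 0.0297 by limma), in the direction of *Spry1*. The other 7 of these 9 genes were not altered.

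The rest of the FGF-ERK pathway was described from a list of 140 genes in 8 roles, the 10 genes above included, of which 107 were analysed. Besides *Spry1*, *Etv5* and *Fgfr2*, 2 of these genes rose (*Gpc3* and *Myc*) and 2 fell (*Dusp2* and *Egr2*). Of the 99 analysed genes outside the 8 described above, none had an adjusted p under 0.05 by limma. The 4 that were altered among these 99 are 2 in each direction, where 2.12% of all genes were altered upward and 3.65% downward. All mutants lay below all controls for 4 of the 99, *Dusp2* and *Egr2* among them, and above all controls for 0. Over all genes these shares were 3.14% and 2.13%.

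Of the ligands, 5 of 22 were analysed (*Fgf1*, *Fgf3*, *Fgf10*, *Fgf11* and *Fgf13*) and none was altered. *Fgf13*, an intracellular member that does not act through the receptors, had the highest level per length, and differed by -0.06 ± 0.21. *Fgf1* differed by -0.10 ± 0.27, and *Fgf3* and *Fgf10*, secreted ligands known from tooth development, by -0.21 ± 0.34 and -0.43 ± 0.33. The pulp of both genotypes thus held reads for ligands, and no difference in them passed the test.

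Among 19 coreceptors and heparan sulfate genes, *Gpc3*, a cell surface glypican, rose by 0.72 ± 0.24 (unadjusted p = 0.00923 and adjusted p = 0.253 by limma). Its values were 8.29, 8.61, 8.43 and 8.03 log2 CPM in controls and 8.97, 8.57, 8.90 and 9.80 in the mutants, with the highest in library 56, as for *Fgfr2*, and without that library the difference was 0.47, under 1.5-fold. *Sdc4*, a syndecan, differed by -0.03 ± 0.25. None of the 13 adaptors was altered, *Shc1* (-0.13 ± 0.19) and *Crk* (0.07 ± 0.26) among them. None of the 15 RAS, RAF, MEK and ERK genes was altered either, with *Mapk3*, which encodes ERK1, at -0.31 ± 0.20 and *Map2k1*, which encodes MEK1, at 0.17 ± 0.22.

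Of the 15 analysed feedback inhibitors outside the 4 described above, 1 was altered. *Dusp2*, a phosphatase of the nucleus that acts on ERK, fell by 0.96 on the log2 scale (SE 0.33, unadjusted p = 0.0113 and adjusted p = 0.282 by limma). It was 3.28, 2.62, 2.52 and 2.27 log2 CPM in controls and 2.15, 2.18, 1.17 and 1.35 in the mutants, with no overlap. *Dusp2* and *Spry1*, both inhibitors, thus moved in opposite directions. *Dusp1*, another phosphatase, differed by -0.07 ± 0.20, and *Flrt3*, a membrane protein that binds FGF receptors, by 0.47 ± 0.23 (adjusted p = 0.64 by limma).

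None of the 13 analysed ETS factors other than *Etv5* was altered, and *Ets2* differed by 0.11 ± 0.15. Of 18 other genes that ERK can induce, *Myc* rose by 0.63 ± 0.23 (unadjusted p = 0.0158 and adjusted p = 0.338 by limma) and *Egr2*, a zinc finger factor, fell by 1.70 on the log2 scale (SE 0.45, adjusted p = 0.121). *Myc* was 4.69, 4.66, 5.10 and 4.06 log2 CPM in controls and 5.67, 5.29, 5.16 and 4.92 in the mutants, with an overlap through library 56, and it was not altered without library 52 (0.44) or library 53 (0.50). *Egr2* rested on 11 to 24 reads per control library and on 3 to 10 per mutant library. The immediate early genes with the highest level per length, *Ier2* and *Ier3*, differed by -0.04 ± 0.24 and 0.27 ± 0.22.

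**Figure D5:**
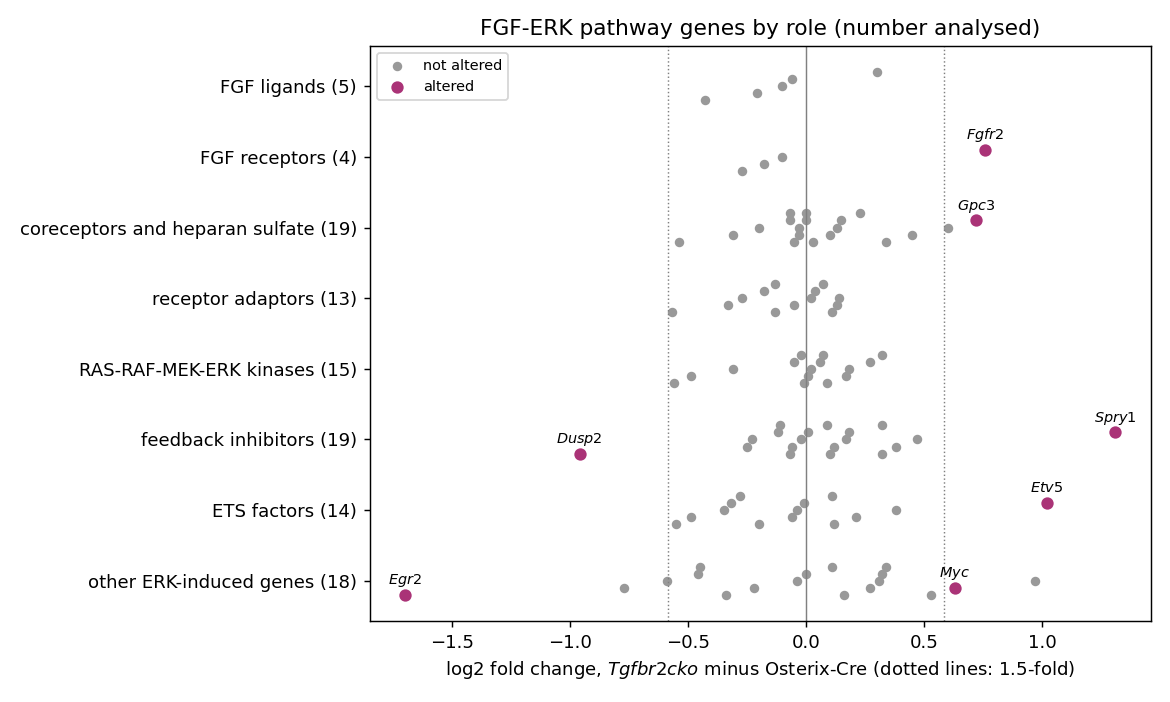
Log2 fold change, mutants minus controls, of the 107 analysed pathway genes, with 1 point per gene in its role and the altered genes named. Of the 107, 5 lie among the altered genes to the right and 2 to the left, and the adaptors and the RAS, RAF, MEK and ERK genes have none.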

How the data were processed

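RNA was taken from P7 M1 pulp, amplified from a low input and sequenced by the authors. Per the labels, their processing used fastp 0.21.0, HISAT2 2.1.0, featureCounts of Subread 2.0.1 and limma on GRCm38.p5. The setting for strand is not given in the sources used here. The deposited values are log2 CPM from voom, log2 of the reads plus 0.5 scaled to the library total, which the authors computed after the CLEAR workflow kept reliably quantified genes. Reads recovered from this formula came out whole to within 3.6e-08 for all 12148 genes, and 1 read was worth between 0.0739 and 0.115 CPM. The labels do not say which libraries came from separate animals, so p-values measure the spread between these libraries, which may be partly technical, and amplified reads are not independent molecules.

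Symbols, positions and exon lengths came from GENCODE M21 (12144 genes matched). The genotypes were compared on the deposited log2 values with limma 3.58.1 in R 4.3.3, with all 8 libraries in 1 model and an intensity trend in the moderated two-sided test. The p-values were adjusted over all genes by the Benjamini-Hochberg method, and single genes were also compared over the 70 arrangements of 4 against 4 (exact permutation test, two-sided). The fit of all 8 libraries with genotype alone was tested on simulated counts, and the alternative fits were not. The 8 genes, the pathway list, the marker lists and the motifs were chosen with earlier results of these data known. Named besides the 8 genes were altered pathway genes, the 2 genes of each role with the highest level per length, the 3 genes most like each altered gene, and *Tgfbr2*, *Amelx* and *Ambn*. Genes overlapping a named gene, *G630022F23Rik*, *Ctbp2* and *Gm42922*, *Fgf3*, *Fgf10* and *Fgf11*, and single genes of the marker lists, were named after the values were seen. Promoter windows ran from 250 bases before to 50 after the start, and the last 20 bases of 6 of 8 windows were found in a transcript of the gene. Alternatives were other weights, scalings, filters and thresholds, covariates for enamel matrix or dental epithelium markers, and each library left out in turn. The enamel matrix term was the mean log2 value of *Amelx*, *Ambn* and *Enam* alone. The dental epithelium term was that of the analysed markers of its list.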

Additional observations from a re-analysis of the deposited data

Results flagged for a closer look

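In the *Tgfbr2cko* group, library 56 was far below the other 3 libraries for *Fgfr1* (10.10 log2 CPM) and for *Fgfr3* (7.49). The gap to the nearest library was 0.920 of the range of the group for *Fgfr1* and 0.917 for *Fgfr3*. These are 2 of 16 groups of 4 libraries tested, and chance flags about 1 in 20. Library 56 also held the most *Amelx* and *Ambn* reads, at 18.5%, and the most dental epithelium marker reads, and the part of these in the low values was not tested.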

How the results depend on the processing

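*Spry1* and *Etv5* were altered in each of the 20 other fits, with log2 changes of 1.20 to 1.51 and 0.90 to 1.23. With fits other than those leaving out a library, the adjusted p stayed under 0.05 for *Spry1* in 12 of 12 and for *Etv5* in 11 of 12, the exception being the fit with no intensity trend (0.0966). *Fgfr2* kept an unadjusted p under 0.05 in all 20 but was under 1.5-fold with library weights (0.55), with the enamel matrix term (0.55), with the dental epithelium term (0.42), without library 56 (0.49) and without libraries 49, 55 and 56 (0.38). *Dusp6* had an unadjusted p under 0.05 in 1 of the 8 fits leaving out 1 library and in 8 of the 12 others, and never reached 1.5-fold. *Spry2* stayed positive in the 19 other fits that held it, and its unadjusted p was never under 0.05. Its size varied, from 0.04 without library 53 to 0.62 without library 49. With the dental epithelium term it was 0.71, and without libraries 49, 55 and 56 it was 0.92 (unadjusted p = 0.0592 by limma). The sign of *Fgfr1* turned with the enamel matrix term (0.07) and the dental epithelium term (0.13), and with libraries left out it ran from -0.30 to 0.09. *Fgfr3* turned in the same fits (0.02 and 0.12) and ran from -0.40 to 0.03. The median of all genes was 0.07 with the enamel matrix term and 0.10 with the dental epithelium term. *Spry4* turned with library weights (0.18), with libraries of the same second label number averaged (0.00), with the enamel matrix term (0.01), the dental epithelium term (0.09), totals without enamel matrix genes (0.06) and without libraries 49, 55 and 56 (0.17), and ran from -0.12 to 0.13 with libraries left out. The last 2 alternatives were chosen after seeing the data, and the median of all genes was 0.07 and 0.11 in them. It was 0.02 with library weights and 0.01 with libraries averaged. Of the fits named for *Spry4*, its value was above that median only with library weights and without libraries 49, 55 and 56.

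Of the pathway genes, 7 were altered, against 4 with library weights, 3 with a 2-fold limit and 2 by adjusted p, and 8 to 13 with a library left out, the most without library 53. Over all genes 701 were altered, against 256 with a 2-fold limit and 115 by adjusted p. The dental epithelium term and leaving out libraries 49, 55 and 56 each moved the median of all genes by 0.11. Relative to that median *Fgfr2* was 0.32 and 0.27, *Spry1* 1.40 and 1.36, *Etv5* 1.08 and 1.08 and *Dusp6* 0.41 and 0.26. *Spry2* was 0.61 and 0.81, *Spry4* -0.01 and 0.06, *Fgfr1* 0.03 and -0.16 and *Fgfr3* 0.02 and -0.15. The share of rises among altered genes, 36.8%, was 47% without library 56, 49.8% with the dental epithelium term and 51.2% without libraries 49, 55 and 56. Levels per kb of the longest transcript in place of all exons were 440 for *Fgfr1*, 98.6 for *Fgfr3*, 21.9 for *Dusp6* and 12 for *Fgfr2* and kept the order of the 8 means. No paired or blocked analysis was run. The genotypes share no sample number and only 1 second label number (2), on which a blocked model would compare 1 control (library 51) with 2 mutants (54 and 55). The cause of these changes was not tested. Each gene rested on 4 libraries per genotype, and *Egr2* (3 to 24 reads), *Dusp2* (19 to 95) and *Spry2* (33 to 107) had few reads.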
